A study of Mus musculus with 8 samples.

Results

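The genes described here are 32 neuronal adhesion molecules of the immunoglobulin superfamily, taken as a list of gene symbols by family, with no threshold on their values, though earlier results of these data were known when the list was made. All 32 were present in both count tables, which hold 55202 genes, and all 32 passed the filter on low counts that left 22820 genes for testing. They are the contactins Cntn1 to Cntn6, the L1 family (L1cam, Chl1, Nrcam and Nfasc), Ncam1 and Ncam2, the sidekicks Sdk1 and Sdk2, Dscam and Dscaml1, Kirrel3, the IgLONs (Negr1, Lsamp, Opcml and Ntm), Igsf3, Igsf8, Igsf9, Igsf11 and Igsf21, the SynCAMs Cadm1 to Cadm4, and Alcam and Mcam.

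The libraries came from subplate tissue, dissected by eye out of the somatosensory cortex at postnatal day 0, in mice of mixed strain. Lhx2, a LIM-homeodomain transcription factor gene, carried loxP sites on both alleles in the mutants. In the Emx1Cre line the mutants are Emx1Cre11.5;Lhx2lox/lox, in which recombination begins in cortical progenitors, and in the NexCre line they are NexCre;Lhx2lox/lox, in which it takes place in postmitotic excitatory neurons. The controls of each line are labelled WT, and whether they carried a Cre or a floxed allele is not stated, so effects of the Cre allele and of losing Lhx2 cannot be told apart. Each of the 4 groups holds 2 libraries, and each library was made from a pool of 2 brains, so every group below has 2 pools and no value for a single animal.

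Adhesion molecules of this superfamily carry immunoglobulin domains outside the cell, often followed by fibronectin type III repeats. They bind copies of themselves or other members on neighbouring cells. Contactins and IgLONs are held to the membrane by a lipid anchor, while L1 family members, sidekicks and SynCAMs span it. In the developing cortex they act in axon growth, bundling of axons, target choice and synapse formation. The study asked how Lhx2 in progenitors affects innervation of the cortex by the thalamus. Whether incoming axons meet these molecules in the subplate was not measured here.

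Promoter sequences are shown for 5 members on which the results turn, Sdk2, Sdk1, Cntn2, Cntn3 and Ntm, because the study removed a transcription factor of the homeodomain class, which binds sites with a TAAT core. Each window is 300 bases of RefSeq sequence (GRCm38.p6) from 250 bases before to 50 after an annotated start, written 5′ to 3′ on the strand of the gene, with TAAT or its reverse complement ATTA in capitals. The windows are chr11:114066980-114067279 (minus strand) for Sdk2, chr5:141241284-141241583 (plus strand) for Sdk1, chr1:132542891-132543190 (minus strand) for Cntn2, chr6:102464618-102464917 (minus strand) for Cntn3 and chr9:29412636-29412935 (minus strand) for Ntm, the last being the second of 2 starts listed for that gene. The starts of Cntn3 and Ntm lie inside the longer GENCODE spans given for these genes.
Sdk2: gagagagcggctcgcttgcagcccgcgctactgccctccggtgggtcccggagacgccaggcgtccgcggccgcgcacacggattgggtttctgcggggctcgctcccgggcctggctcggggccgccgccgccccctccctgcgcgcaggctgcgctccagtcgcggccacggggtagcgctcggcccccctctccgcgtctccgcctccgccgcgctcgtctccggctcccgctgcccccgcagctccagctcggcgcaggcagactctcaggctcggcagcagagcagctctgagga
Sdk1: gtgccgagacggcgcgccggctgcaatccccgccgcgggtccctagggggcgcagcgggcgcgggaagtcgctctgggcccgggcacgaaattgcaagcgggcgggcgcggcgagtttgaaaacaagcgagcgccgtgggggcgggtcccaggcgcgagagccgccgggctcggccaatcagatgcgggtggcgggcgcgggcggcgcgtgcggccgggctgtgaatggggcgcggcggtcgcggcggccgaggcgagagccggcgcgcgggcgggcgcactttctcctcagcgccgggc
Cntn2: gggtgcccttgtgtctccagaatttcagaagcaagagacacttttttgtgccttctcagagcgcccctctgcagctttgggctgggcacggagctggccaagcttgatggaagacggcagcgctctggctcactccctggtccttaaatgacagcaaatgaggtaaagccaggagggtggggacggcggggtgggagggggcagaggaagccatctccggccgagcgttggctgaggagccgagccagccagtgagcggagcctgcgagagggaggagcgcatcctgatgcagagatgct
Cntn3: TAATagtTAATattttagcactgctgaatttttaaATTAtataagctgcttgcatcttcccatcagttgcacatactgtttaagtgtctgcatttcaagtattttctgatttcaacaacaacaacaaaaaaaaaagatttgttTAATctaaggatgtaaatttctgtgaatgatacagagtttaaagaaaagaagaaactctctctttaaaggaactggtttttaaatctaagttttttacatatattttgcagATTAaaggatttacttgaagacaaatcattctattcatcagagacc
Ntm: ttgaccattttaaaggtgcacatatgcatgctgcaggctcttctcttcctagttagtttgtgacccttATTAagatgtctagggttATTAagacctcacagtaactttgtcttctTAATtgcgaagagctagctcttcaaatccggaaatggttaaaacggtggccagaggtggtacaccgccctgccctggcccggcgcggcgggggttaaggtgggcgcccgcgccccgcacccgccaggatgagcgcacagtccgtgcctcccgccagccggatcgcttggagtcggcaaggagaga
The windows of Sdk2 and Sdk1, with a GC content of 76.7% and 78.3%, hold no TAAT core, and neither does that of Cntn2 (61.3% GC). The window of Cntn3, with 27.7% GC, holds 5 and this window of Ntm 3, while the window at the other start of Ntm (chr9:29413403-29413702) holds none. A TAAT core on either strand is found in 58% of 32851 promoter windows of the same length, and the longer palindrome TAATTA in 5.29%. Among 36 windows listed for 28 of the 32 members, 15 hold TAAT and 1, of Cntn4, holds TAATTA. A match is a stretch of letters and not a shown binding site.

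The libraries held 31.2 to 64.4 M reads, and a member had 166 to 59446 reads in a library. Expression is given as CPM, reads per 1 M reads of a library whose size is scaled by TMM. Fold changes are on the log2 scale with the standard error (SE) of the fit, and a gene is called changed at an adjusted p under 0.05 in the quasi-likelihood test of edgeR, adjusted by Benjamini-Hochberg over all genes tested. Lhx2 was found at 90.4 and 91.5 CPM in Emx1Cre controls and 64.0 and 42.7 CPM in their mutants, and at 182 and 236 CPM in NexCre controls and 227 and 245 CPM in the libraries labelled NexCre mutant, so the level of the whole gene does not check the label of the latter. Emx1 fell by 1.66 ± 0.22 on the log2 scale in Emx1Cre mutants (adjusted p = 0.0334), and Neurod6, the gene known as Nex, had −0.75 ± 0.23 in NexCre mutants (adjusted p = 0.95). Neither gene was lower in its own line alone. Emx1 had −0.61 ± 0.22 in NexCre mutants and Neurod6 −0.28 ± 0.23 in Emx1Cre mutants, neither called. The subplate marker Cplx3 stood at 51.2 and 62.7 CPM in Emx1Cre controls but at 0.90 and 1.42 CPM in NexCre controls, and 9 subplate markers summed to 367 and 413 CPM in the former and 84.2 and 77.3 CPM in the latter. The 2 lines also differed in library composition, with the small nuclear RNA Rn7sk at 1.44 to 35.7 CPM in the Emx1Cre libraries and 17400 to 22422 CPM in the NexCre libraries, so levels of the 2 lines are given side by side without a test.

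Markers of other cell types also differed between libraries of the Emx1Cre line, those of striatum and GABA neurons mainly in mutant 2. All 10 astrocyte markers lay above their control level in Emx1Cre mutants, and their sum was 1880 and 1688 CPM in controls and 3980 and 3332 CPM in mutants. The 8 meningeal markers summed to 20.7 and 17.7 CPM in controls but to 45.3 and 172 CPM in mutants 1 and 2, with Aldh1a2 or Slc6a13 at 0 reads in at least 1 library. Striatal markers summed to 166, 174 and 145 CPM in the other Emx1Cre libraries and 432 CPM in mutant 2, and markers of GABA neurons to 430 and 547 CPM in controls and 538 and 901 CPM in mutants. The 9 excitatory neuron markers summed to 1624 and 2028 CPM in Emx1Cre controls and 1557 and 1500 CPM in mutants. The 9 subplate markers summed to 295 and 303 CPM in the mutants. Neither list moved as 1, with 2 excitatory and 4 subplate markers at log2 fold changes above 0. The list medians were −0.28 and −0.54. The part of these shifts in the values of Sdk2, Sdk1, the contactins and the others was not tested. Choroid plexus markers reached 361 CPM in NexCre control 1 and 2041 CPM in mutant 1, against 5.82 and 22.8 CPM in the other pools.

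Among control libraries the SynCAM Cadm4 had the highest level per exon length in the Emx1Cre line and Ncam1 in the NexCre line. CPM per kilobase of exon were 301 and 335 for Cadm4 in the 2 Emx1Cre controls and 119 and 131 in the NexCre controls. Ncam1, which encodes the neural cell adhesion molecule that carries polysialic acid in the developing brain, stood at 66.8 and 94.9 in Emx1Cre controls and 154 and 170 in NexCre controls on the same scale. In Emx1Cre controls Cadm3, Ncam1, L1cam and Igsf21 followed Cadm4, and the ranges of these 4 overlapped. At the other end stood Sdk2, lowest of the 32 in both lines, with 1.09 and 1.32 per kilobase in Emx1Cre controls and 2.01 and 2.07 in NexCre controls. Just above it in Emx1Cre controls were Igsf11, Cntn4 and Cntn3, the last at 2.36 and 2.73, and the range of Igsf11 (1.00 to 1.72) enclosed that of Sdk2. Igsf21 and Igsf3 differed in level between the controls of the 2 lines, in opposite directions, with Igsf21 at 59.1 and 89.9 per kilobase in Emx1Cre controls and 18.4 and 20.6 in NexCre controls, and Igsf3 at 13.5 and 19.6 against 42.0 and 46.3.

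**Figure D1:**
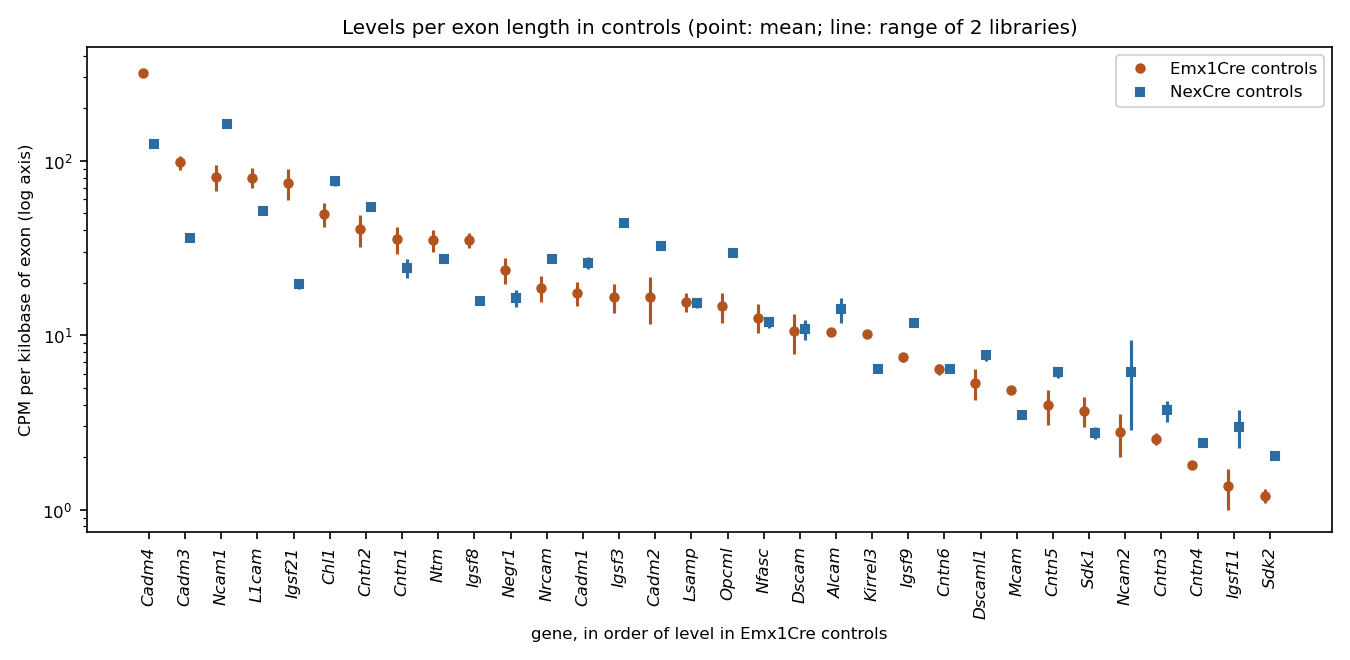
Level of each of the 32 genes in control libraries, as CPM per kilobase of exon on a log axis, ordered by the mean of the Emx1Cre controls; points are means of 2 libraries and lines their range. Cadm4 leads in Emx1Cre controls, Ncam1 leads in NexCre controls, and Sdk2 is lowest in both.

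The Emx1Cre comparison bears on the removal of Lhx2 from progenitors. Of the 32 members edgeR called 1 there, Sdk2, which was higher in mutants. Sdk2 and its paralog Sdk1 encode sidekicks, homophilic adhesion molecules that direct neurons of the mouse retina to matching synaptic layers. Sdk2 (ENSMUSG00000041592, chromosome 11, 113776374 to 114067046 in mm10, minus strand) was found at 16.8 and 20.3 CPM in controls and 43.8 and 43.3 CPM in mutants. Both mutant pools lay above both controls. Sdk2 rose by 1.23 ± 0.17 on the log2 scale (95% interval 0.86 to 1.599), a 2.34-fold difference, with an adjusted p of 0.0334. Of all 22820 genes tested 0.0789% were called, 18 in number, of which 5 were higher (0.0219%) and 13 lower (0.057%). The call was lost when any 1 of the 8 libraries was left out, while the log2 fold change of Sdk2 stayed between 1.10 and 1.37. Few or no genes of all tested were called in those fits. DESeq2 gave Sdk2 an adjusted p of 2.09e-07. In bulk tissue, more or fewer cells of a type and more or less RNA per cell cannot be told apart.

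Sdk1 (chromosome 5, 141241490 to 142215586, plus strand) was at 33.0 and 48.8 CPM in Emx1Cre controls and 69.9 and 87.2 CPM in mutants, again without overlap. The log2 fold change of Sdk1 was 0.94 ± 0.21 (95% interval 0.48 to 1.41). EdgeR gave it an adjusted p of 0.191 and DESeq2 0.0088. Leaving out single libraries gave 0.69 to 1.25. In NexCre controls Sdk2 stood at 32.03 and 31.1 CPM, with 40.9 and 47.5 CPM in mutants, without overlap, and a log2 fold change of 0.49 ± 0.16 (95% interval 0.12 to 0.85). Its unadjusted p was 0.0144 and its adjusted p 1.00. Its paralog Sdk1 stood at 33.1 and 28.0 CPM in NexCre controls and 32.4 and 30.6 CPM in mutants, so that the mutants fell within the range of the controls, and its log2 fold change was 0.04 ± 0.21. The difference between the effects in the 2 lines (NexCre minus Emx1Cre) was −0.74 ± 0.23 for Sdk2 and −0.90 ± 0.29 for Sdk1, with adjusted p of 0.677 and 0.728, so neither difference passed the test.

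**Figure D2:**
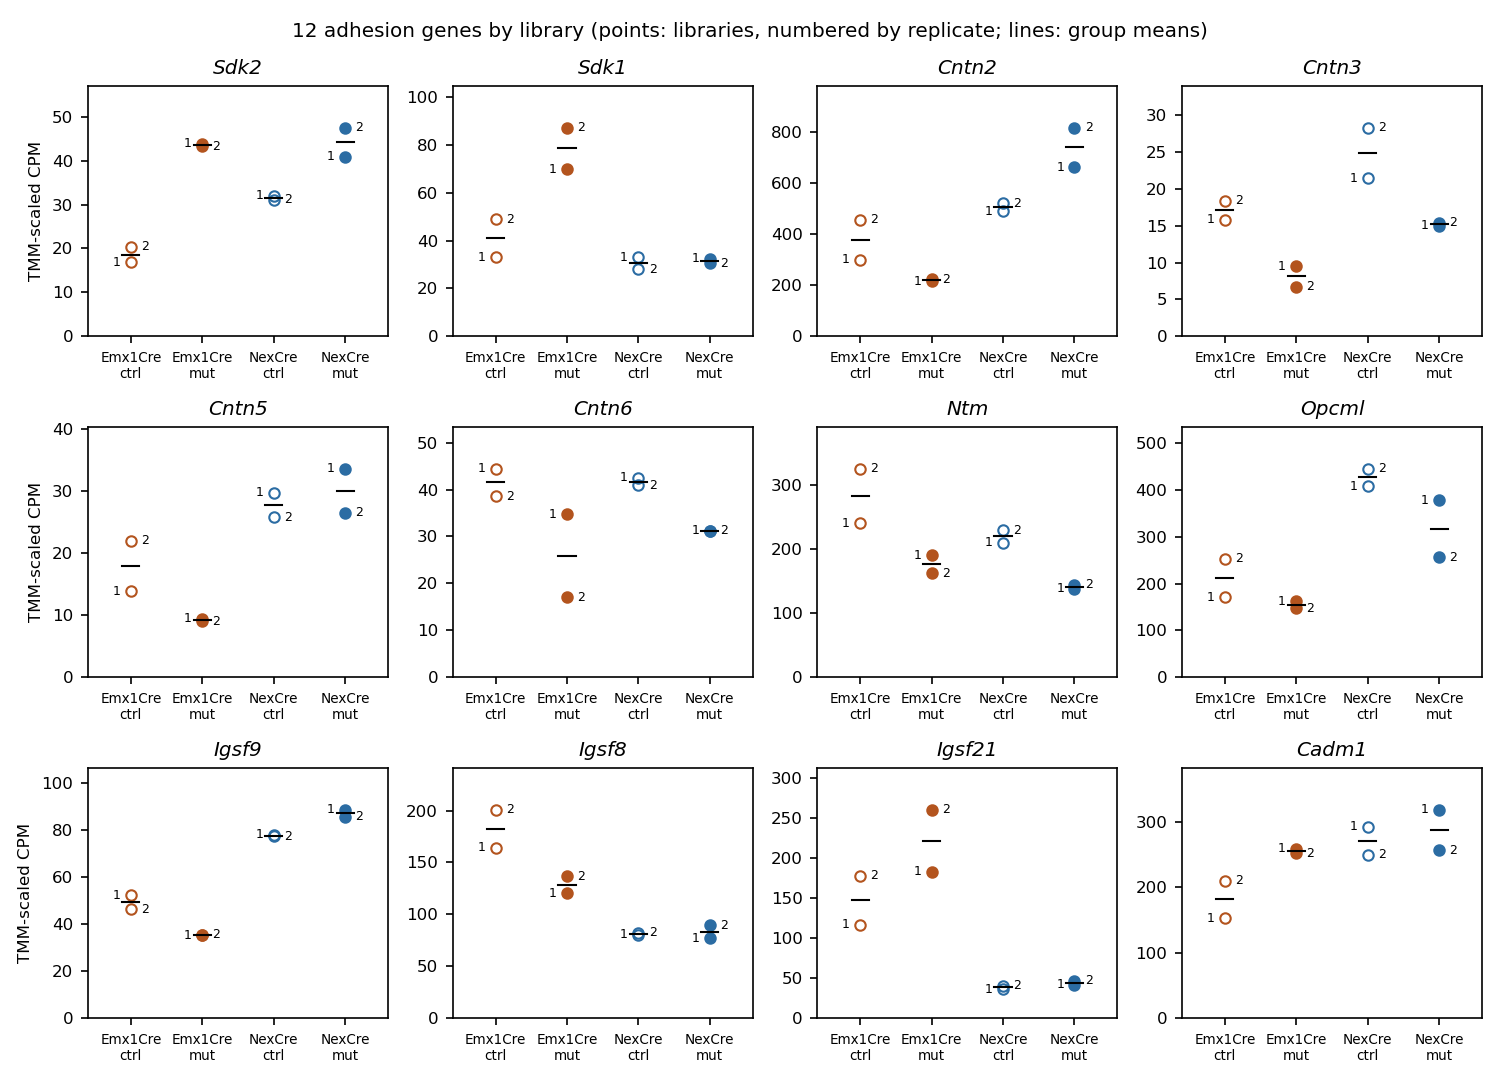
TMM-scaled CPM of 12 adhesion genes in each of the 8 libraries, numbered by replicate, with open points for controls, filled points for mutants, orange for Emx1Cre, blue for NexCre and short lines for group means; each axis starts at 0. Sdk2 is higher in mutants of both lines, Cntn3 and Ntm are lower in both, and Cntn2 is lower in Emx1Cre mutants and higher in NexCre mutants.

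Over the 32 members, differences in the Emx1Cre line lay in both directions. An unadjusted p below 0.05 was found for 13 of 32 (40.6%), 6 higher and 7 lower, against 7.59% of all genes tested (4.52% higher and 3.07% lower). Among the 12087 genes with a mean of at least 5 CPM, a level that every member reached, it was 8.29%. In 20 of 32 members (62.5%) the mutants did not overlap the controls, 10 higher and 10 lower, where 30.2% of all tested genes did not overlap (15.1% higher and 15.2% lower) and 33.2% of those with at least 5 CPM. The median log2 fold change was −0.04, against 0 for all tested genes, and the median absolute value 0.38, against 0.22 for all tested genes and 0.15 for those with at least 5 CPM. DESeq2 called 6 of 32, Sdk2 and Sdk1 higher and Cntn2, Cntn3, Cntn5 and Ntm lower, where it called 1.29% of all genes (0.758% higher and 0.53% lower). The members were put together with results of these data in view, so these shares describe the list and test nothing about it.

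**Figure D3:**
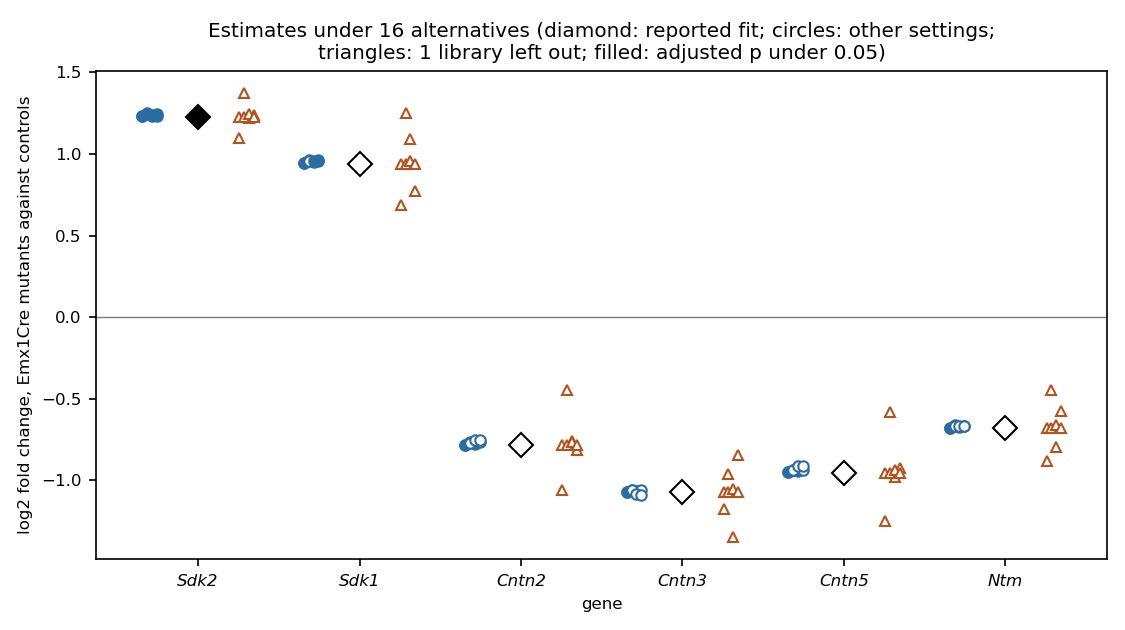
Log2 fold change in Emx1Cre mutants for 6 genes under 16 alternatives, with a diamond for the reported fit, circles for other settings, triangles for fits without 1 library, and filled symbols where the adjusted p is under 0.05. Signs hold in each fit, and Sdk2 is called in 8 of the 16 alternatives, in none of the fits that leave out a library.

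The NexCre comparison bears on the removal of Lhx2 from excitatory neurons after their last division, and there edgeR and DESeq2 each called 0 of the 32. In edgeR 0.0307% of all genes were called and in DESeq2 0.333%. Of the members 4 (12.5%) had an unadjusted p below 0.05, Cntn2 and Sdk2 higher and Cntn3 and Ntm lower, against 3.96% of all genes tested (1.69% higher and 2.27% lower) and 4.08% of those with at least 5 CPM. In 12 of 32 (37.5%) the groups did not overlap, 6 higher and 6 lower, against 35.8% of all genes (18.1% higher and 17.7% lower) and 36.6% of those with at least 5 CPM, a share near the background. The median absolute log2 fold change was 0.18, against 0.21 for all tested genes and 0.12 for those with at least 5 CPM.

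**Figure D4:**
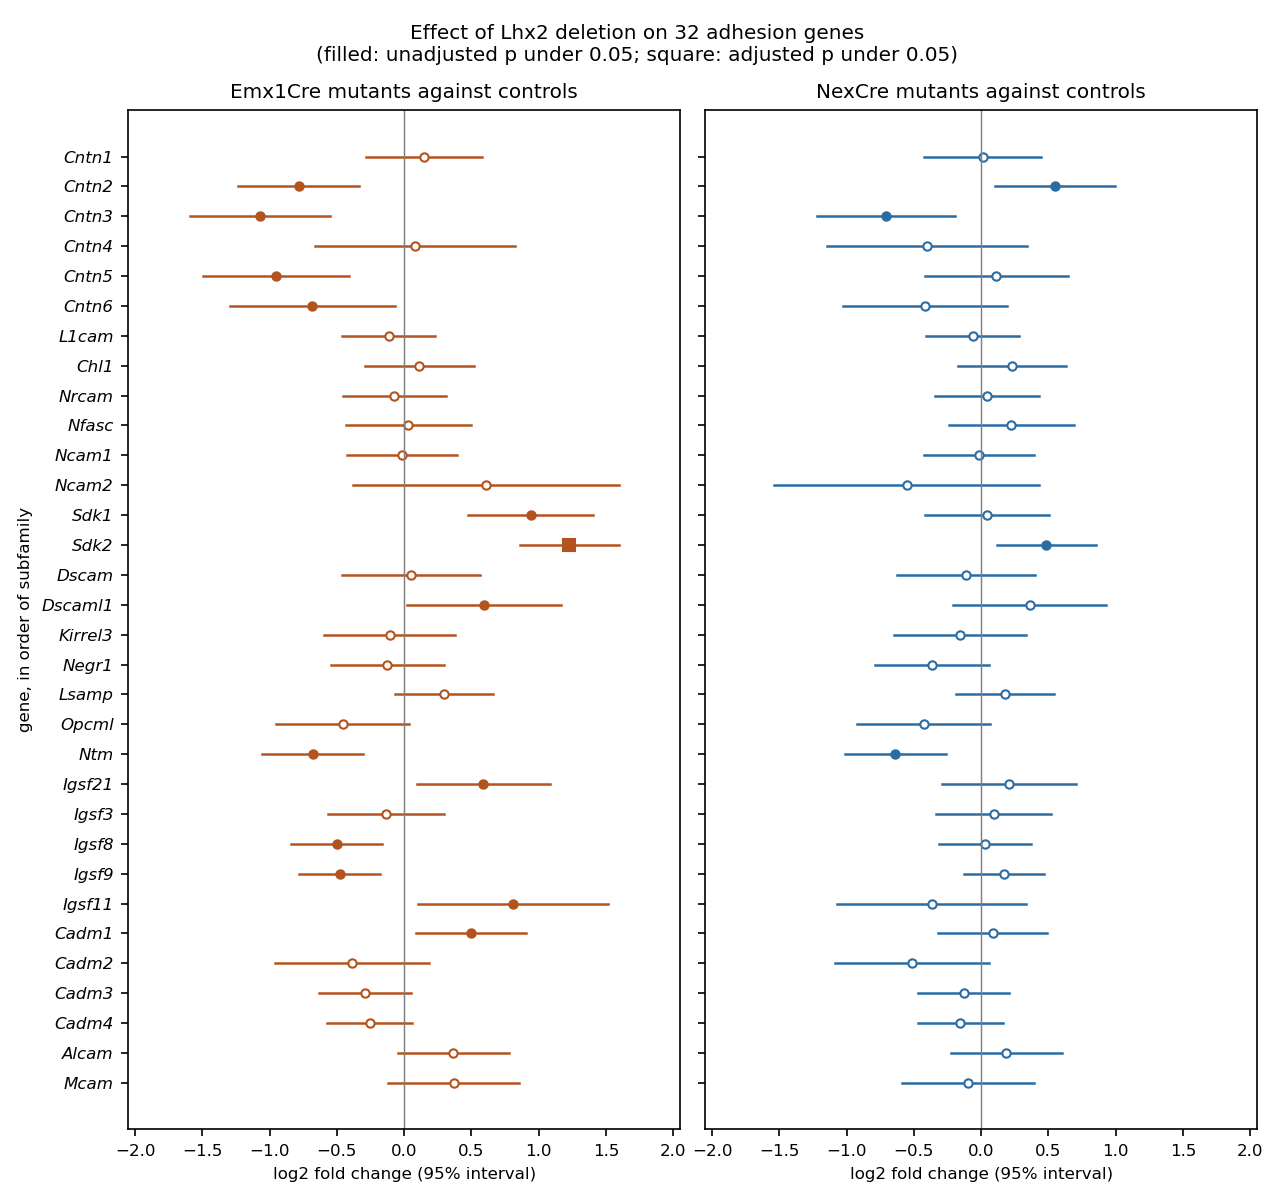
Log2 fold change of the 32 genes in mutants against controls of each line, with 95% intervals from the edgeR fit; filled points have an unadjusted p under 0.05 and the square an adjusted p under 0.05. In the Emx1Cre line 13 points are filled and Sdk2 is the square, and in the NexCre line 4 are filled and there is no square.

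Of the 6 contactins, Cntn2, Cntn3, Cntn5 and Cntn6 were lower in both Emx1Cre mutants than in either control, and none was called by edgeR. Over all tested genes, 15.2% were lower without overlap in that line. Contactins are anchored axonal molecules that act through partners such as the Caspr proteins and receptor phosphatases. Cntn3 (chromosome 6, 102162655 to 102573101) had the lowest log2 fold change of the 32. It had 15.9 and 18.4 CPM in Emx1Cre controls and 9.52 and 6.73 CPM in mutants, a log2 fold change of −1.07 ± 0.23 with an adjusted p of 0.187 in edgeR and 0.00469 in DESeq2. Its NexCre values were 21.4 and 28.3 CPM in controls and 15.04 and 15.4 CPM in mutants, a log2 fold change of −0.71 ± 0.23 with an adjusted p of 1.00. The mutants thus lay below the controls without overlap in both lines.

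Cntn2 (chromosome 1, 132509427 to 132543256), known as TAG-1, marks corticofugal axons during their outgrowth. It measured 299 and 456 CPM in Emx1Cre controls and 215 and 224 CPM in mutants, a log2 fold change of −0.78 ± 0.20 (95% interval −1.23 to −0.33), for which edgeR gave an adjusted p of 0.273 and DESeq2 0.0338. Among NexCre libraries the order was the other way round, with 490.4 and 522 CPM in controls and 662 and 816 CPM in mutants, a log2 fold change of 0.55 ± 0.20 (95% interval 0.10 to 1.00). The groups overlapped in neither line. The difference between the 2 effects was 1.33 ± 0.28, the largest of the 32 in size, with an unadjusted p of 0.000884 and an adjusted p of 0.512 in edgeR and an adjusted p of 0.00955 in DESeq2. Without Emx1Cre control 2, the higher of those controls, the Emx1Cre value was −0.45, and without control 1 it was −1.06.

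Cntn5 (chromosome 9, 9660891 to 10904775), a contactin of auditory and retinal circuits, was at 13.9 and 22.0 CPM in Emx1Cre controls and 9.43 and 9.06 CPM in mutants, a log2 fold change of −0.95 ± 0.24 (adjusted p of 0.273 in edgeR and 0.0299 in DESeq2). Without Emx1Cre control 2 it was −0.58. The Cntn5 groups of the NexCre line overlapped, with 29.7 and 25.8 CPM in controls and 33.6 and 26.5 CPM in mutants. The value of Cntn6 (chromosome 6, 104492790 to 104863406) rested mostly on mutant 2. Its CPM were 44.4 and 38.6 in Emx1Cre controls, 34.7 in mutant 1 and 17.0 in mutant 2, and the log2 fold change of −0.68 ± 0.27 became −0.26 without mutant 2 and −1.29 without mutant 1. In NexCre libraries Cntn6 stood at 42.5 and 40.9 CPM in controls and 31.3 and 31.2 CPM in mutants, a log2 fold change of −0.42 ± 0.27. Cntn1 is a partner of Caspr on myelinated axons, and Cntn4 guides retinal axons to their targets. Their log2 fold changes were 0.15 ± 0.19 and 0.08 ± 0.33 in the Emx1Cre line, and 0.01 ± 0.19 and −0.40 ± 0.33 in the NexCre line. In NexCre mutants Cntn4 stood at 21.8 and 8.92 CPM against 21.0 and 19.6 CPM in controls, so a single pool was low, and without that pool the value was 0.10.

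Cntn3, Cntn6 and Cntn4 lie in 1 stretch of chromosome 6 with the L1 family gene Chl1, with no other protein-coding gene between neighbours in GENCODE M21. From Cntn3 the order is Chl1, Cntn6, Cntn4, with gaps of 0.937, 0.743 and 0.814 Mb. The log2 fold changes in Emx1Cre mutants along it were −1.07, 0.11, −0.68 and 0.08.

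The L1 family, whose members guide and bundle axons and, in Nrcam and Nfasc, hold the axon initial segment and nodes, gave no call in either line, and neither did the NCAMs. L1cam, which promotes growth and bundling of axons, had 511 and 662 CPM in Emx1Cre controls and 547 and 536 CPM in mutants, and Ncam1 had 579 and 822 against 668 and 716 CPM. In both genes the mutants lay between the controls. The log2 fold changes of L1cam, Chl1, Nrcam and Nfasc ran from −0.12 to 0.11 in Emx1Cre mutants and from −0.06 to 0.23 in NexCre mutants. The 95% interval of L1cam was −0.46 to 0.23 in the Emx1Cre line, and that of Ncam1 was −0.43 to 0.39. Differences within these bounds are not excluded by 2 pools a group. Chl1, a close homolog of L1cam, stood at 1003 and 876 CPM in NexCre controls and 1171 and 1033 CPM in mutants, without overlap, with a log2 fold change of 0.23 ± 0.18.

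Ncam2 varied more between pools of a group than any other member. In NexCre controls it stood at 107 CPM in control 1 and 32.2 CPM in control 2, with mutants at 49.4 and 45.2 CPM. Its log2 fold change of −0.55 ± 0.44 became 0.55 without NexCre control 1 and −1.18 without control 2. NexCre control 1 is also the library in which 7 thalamic markers summed to 237 CPM, against 46.1 to 60.3 CPM in the other NexCre libraries, with Lhx9 at 59.9 CPM against at most 1.85 CPM, and the part of thalamic markers in the Ncam2 value was not tested. In Emx1Cre libraries Ncam2 stood at 22.7 and 40.1 CPM in controls and 49.0 and 46.6 CPM in mutants, without overlap (0.61 ± 0.44). That SE also takes in the spread of the NexCre pools, and with each line fitted alone the value was 0.62 ± 0.25. In the shared fit it was 0.25 without Emx1Cre control 1 and 1.08 without Emx1Cre control 2.

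Of the IgLONs, lipid-anchored molecules that pair with each other at the neuronal surface, Ntm and Opcml were lower in both mutant pools of each line. None was called, and over all tested genes 3.64% were lower without overlap in both lines. Ntm, neurotrimin (chromosome 9, 28994750 to 29963141), measured 240.4 and 325 CPM in Emx1Cre controls and 190.3 and 163 CPM in mutants. In the NexCre line it stood at 210.1 and 229 CPM in controls and 138 and 144 CPM in mutants. The mutants lay below the controls in both lines, and the log2 fold changes were −0.68 ± 0.17 and −0.64 ± 0.17. Without Emx1Cre control 2 the Emx1Cre value of Ntm was −0.45, and without control 1 it was −0.88. The adjusted p were 0.256 and 0.682 in edgeR and 0.0354 and 0.174 in DESeq2. The difference of the 2 effects was 0.04 ± 0.24, with a 95% interval of −0.49 to 0.57.

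Opcml, the neighbour of Ntm on chromosome 9 across a gap of 0.0693 Mb, was also lower in mutants of both lines without overlap. It was at 171 and 253 CPM in Emx1Cre controls and 162 and 147 CPM in mutants, and at 408 and 445 CPM in NexCre controls and 378 and 256 CPM in mutants. The log2 fold changes were −0.46 ± 0.22 and −0.43 ± 0.22, neither called, and they became −0.15 without Emx1Cre control 2 and −0.17 without NexCre mutant 2. Lsamp, the limbic system-associated member, had 234 and 301 CPM in Emx1Cre controls and 339.6 and 316 CPM in mutants (0.30 ± 0.16), and its NexCre value was 0.18 ± 0.16. The Emx1Cre value of Lsamp was 0.13 without control 1 and 0.49 without control 2. Negr1 had −0.12 ± 0.19 and −0.36 ± 0.19, with no overlap between NexCre controls (189 and 152 CPM) and mutants (139.6 and 125 CPM).

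**Figure D5:**
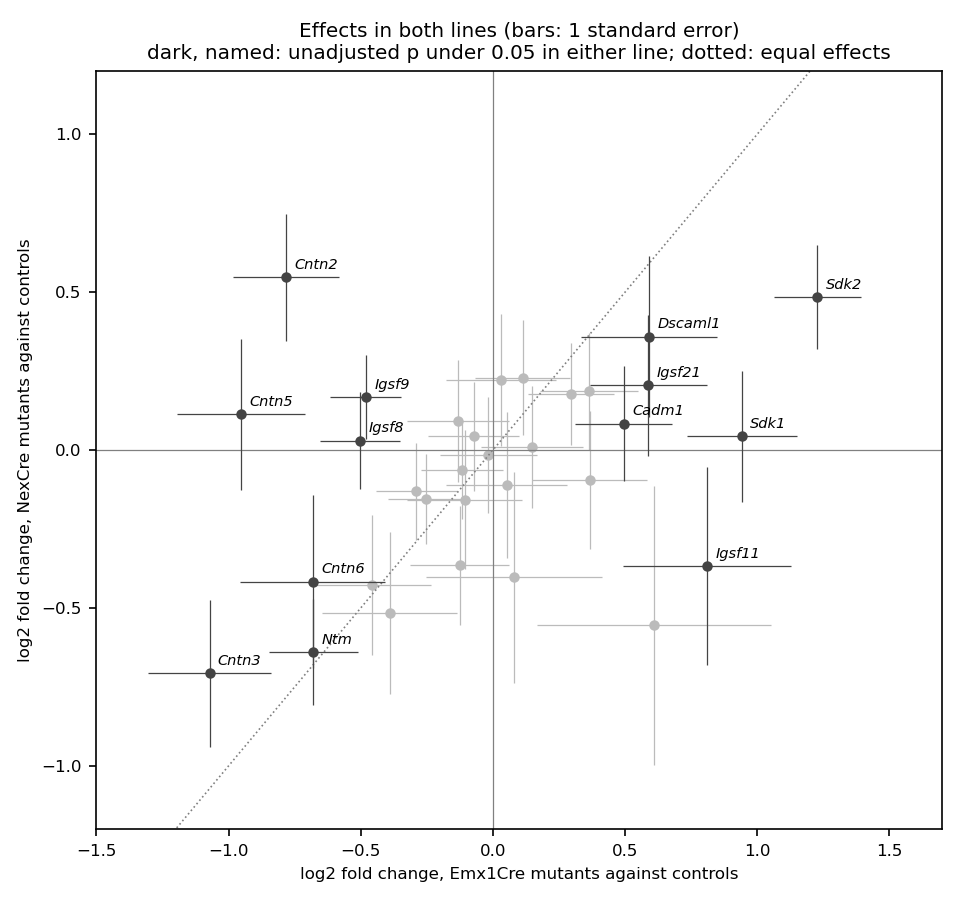
Log2 fold change in NexCre mutants against that in Emx1Cre mutants for the 32 genes, with bars of 1 standard error. Genes are dark and named where the unadjusted p is under 0.05 in either line, and a dotted line marks equal effects. The 2 axes share no libraries. The spread behind the bars of a gene comes from its pools in both lines and from all genes. Cntn3, Cntn6 and Ntm lie below 0 on both axes, Sdk2 lies above 0 on both, and Cntn2 stands apart at −0.78 and 0.55.

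Of the 5 members named IGSF, 2 lay above and 2 below the controls in both Emx1Cre mutants, and none was called. Over all tested genes, 15.1% lay above and 15.2% below without overlap in that line. Igsf9 (chromosome 1, 172481788 to 172498878), a relative of fly Turtle found on dendrites, stood at 52.4 and 46.4 CPM in Emx1Cre control pools and 35.3 and 35.6 CPM in mutants (−0.48 ± 0.13, adjusted p = 0.334 in edgeR). NexCre controls stood at 78.1 and 77.4 CPM and their mutants at 88.8 and 85.8 CPM (0.17 ± 0.13). The groups overlapped in neither line, and the difference of the effects was 0.65 ± 0.19 with an adjusted p of 0.648. Igsf8, a partner of tetraspanins, measured 164 and 201 CPM in Emx1Cre controls and 121 and 137 CPM in mutants (−0.50 ± 0.15), and 80.5 and 82.4 against 76.9 and 89.4 CPM in the NexCre line (0.03 ± 0.15).

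Igsf21, a synaptic adhesion molecule that binds neurexin at inhibitory synapses, had 117 and 178 CPM in Emx1Cre controls and 183 and 260.4 CPM in mutants (0.59 ± 0.22, adjusted p = 0.562). Without mutant 2 its log2 fold change was 0.31, and without Emx1Cre control 2 it was 0.92. NexCre controls held 36.4 and 40.8 CPM and their mutants 42.1 and 47.0 CPM, so that mutants lay above controls in both lines. Igsf11, a homophilic synaptic molecule, measured 7.71 and 4.49 CPM in Emx1Cre controls and 11.1 and 10.4 CPM in mutants (0.81 ± 0.32), and 16.7 and 10.1 CPM against 9.94 and 10.8 CPM in the NexCre line (−0.37 ± 0.31). Its Emx1Cre value was 0.48 without control 2 and 1.26 without control 1, and its NexCre value 0.04 without control 1. Igsf3 had −0.13 ± 0.19 and 0.09 ± 0.19.

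The SynCAMs, which bridge the synaptic cleft, gave no call. Cadm1 was at 153 and 210.3 CPM in Emx1Cre controls and 259 and 252 CPM in mutants, without overlap (0.50 ± 0.18, adjusted p = 0.555), and the value was 0.28 without control 1 and 0.74 without control 2. Cadm3 and Cadm4, the most abundant per exon length in Emx1Cre controls, were lower in both Emx1Cre mutants than in the controls, with log2 fold changes of −0.29 ± 0.15 and −0.25 ± 0.14, and without Emx1Cre control 2 that of Cadm3 was −0.15. In the NexCre line Cadm1, Cadm3 and Cadm4 had 0.08 ± 0.18, −0.13 ± 0.15 and −0.15 ± 0.14, and their groups overlapped. Cadm3 exons overlap those of Ackr1 on the same strand over 4.98% of their length. Cadm2 stood at 333 and 300.4 CPM in NexCre controls and 209 and 233 CPM in mutants, without overlap (−0.52 ± 0.26), and at 114 and 210.2 CPM against 105 and 142 CPM in the Emx1Cre line, where the groups overlapped.

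Among the remaining members, Dscaml1, a relative of the self-avoidance molecule Dscam, held 37.7 and 57.0 CPM in Emx1Cre controls, and mutants 1 and 2 held 53.8 and 88.8 CPM. Its log2 fold change of 0.59 ± 0.26 became 0.19 without mutant 2. In NexCre controls it stood at 73.4 and 63.5 CPM and in mutants at 79.9 and 95.8 CPM (0.36 ± 0.26). Dscam itself had 0.05 ± 0.23 and −0.11 ± 0.23, and Kirrel3, which acts in synapse formation in the hippocampus, −0.11 ± 0.22 and −0.16 ± 0.22. Alcam, which acts in the bundling of axons, had 0.36 ± 0.19 and 0.19 ± 0.18, and 0.22 in Emx1Cre libraries without mutant 2. Mcam, a molecule of vessel walls, had 15.7 and 16.9 CPM in Emx1Cre controls and 24.2 and 17.8 CPM in mutants (0.37 ± 0.22), and −0.09 ± 0.22 in the NexCre line. Without Emx1Cre mutant 1 the value was 0.13. All 9 markers of endothelium and pericytes had log2 fold changes above 0 in Emx1Cre mutants, with sums of 313 and 264 CPM in controls and 477 and 345 CPM in mutants, highest in mutant 1 as for Mcam, and their part in the Mcam value was not tested.

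For the difference between the effects of the 2 lines edgeR called 0 of the 32 members and 1 gene of all tested (0.00438%), and DESeq2 called 1 member, Cntn2, where it called 0.421% of all genes. There were 7 members with an unadjusted p below 0.05, Cntn2, Cntn5, Igsf8 and Igsf9 with the higher effect in the NexCre line and Sdk1, Sdk2 and Igsf11 with the higher effect in the Emx1Cre line. That was 21.9% of the members, against 5.44% of all genes tested (2.06% with the higher and 3.38% with the lower effect in the NexCre line) and 5.39% of those with at least 5 CPM. In 6 members the mutants lay on the same side of the controls in both lines without overlap: Sdk2 and Igsf21 higher, and Cntn3, Cntn6, Opcml and Ntm lower. That was 18.8% of the members, where 6.56% of all tested genes met the same condition (2.92% higher and 3.64% lower).

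Partners of these molecules were examined as a list of 28 genes, which holds the Caspr proteins, ankyrins and spectrins, receptor phosphatases, polysialyltransferases and shedding proteases. EdgeR called 0 of 28 in either line. Counting genes with an unadjusted p below 0.05, 4 were higher and 0 lower in Emx1Cre mutants, DESeq2 called 2 higher, and the median log2 fold change was 0.09. Of all genes tested, 4.52% were higher and 3.07% lower by that count, and DESeq2 called 0.758% higher. Ptprg, a receptor phosphatase that binds contactins Cntn3 to Cntn6, measured 69.4 and 83.3 CPM in Emx1Cre controls and 126 and 131 CPM in mutants (0.75 ± 0.17, adjusted p = 0.191 in edgeR and 0.0125 in DESeq2). Cntnap4, a Caspr protein, was at 24.3 and 28.0 CPM in Emx1Cre controls and 53.7 and 44.9 CPM in mutants (0.92 ± 0.23, adjusted p = 0.259 in edgeR and 0.0167 in DESeq2). Cntnap1, at 0.87 to 4.83 CPM in Emx1Cre libraries, had 1.74 ± 0.55, and Ptprz1, a phosphatase of radial glia that binds Cntn1, had 0.44 ± 0.17. By the same count 0 were higher and 2 lower in NexCre mutants, Cntnap5a (−0.82 ± 0.21) and the growth cone protein gene Gap43 (−0.34 ± 0.15), and the median was −0.04, where 1.69% of all genes were higher and 2.27% lower. The next lowest p there were those of Cntnap4 (0.48 ± 0.23) and the receptor gene Fgfr1 (0.60 ± 0.29). DESeq2 called 0.

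Other adhesion genes of the superfamily formed a second list of 24 genes in the tables. EdgeR called 0 of 24 in either line, and DESeq2 called 3 lower in the Emx1Cre line and 0 in the NexCre line. With an unadjusted p below 0.05, 1 was higher and 5 were lower in Emx1Cre mutants, where the median of the list was 0.10. The shares over all genes were 4.52% and 3.07%, and DESeq2 called 0.53% of all genes lower. The lower ones were Ptgfrn (−0.65 ± 0.15), Mdga1 (−1.16 ± 0.27), Nectin3 (−0.60 ± 0.16), Cdon (−0.97 ± 0.29) and Boc (−1.16 ± 0.36), and Vcam1 was the higher one (0.64 ± 0.27). Mdga1, which binds neuroligins, had 99.0 and 173 CPM in Emx1Cre controls and 49.8 and 71.6 CPM in mutants. Adjusted p of the 3 that DESeq2 called, Mdga1, Ptgfrn and Cdon, were 0.197, 0.191 and 0.388 in edgeR. Among NexCre libraries 0 were higher and 1 lower, Kirrel2, which had 10 and 10 reads in controls and 0 and 0 in mutants, against 1.69% and 2.27% of all genes. After it came Igdcc3 (0.61 ± 0.28), Nectin3 (−0.31 ± 0.15) and Nectin1 (−0.52 ± 0.30).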

How the data were processed

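RNA was measured in 8 libraries of paired reads. The deposited values are read counts per gene symbol, made by the authors, in 1 table per line. HISAT2, SAMtools, DESeq2 and build mm10 are named per the submitters' processing notes; the counting program, annotation and strand setting are not stated.

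Both tables were joined by symbol, and 96.8% of genes matched GENCODE M21, which gave positions and exon lengths. Symbols turned into dates (26 and 24 rows, 0.239% to 0.269% of reads) were left out. After filterByExpr (minimum count 10, minimum total 15) and TMM scaling, edgeR 4.0.16 in R 4.3.3 (glmQLFit, two-sided) was run on all 8 libraries together, with group alone in the model, leaving 4 residual degrees of freedom. SEs and intervals come from the F statistic. The code was tested on simulated data. The smallest exact permutation p for 2 libraries against 2 is 0.333, so p-values lean on the spread pooled over genes and groups. Counts of replicates differed beyond sampling noise (chi-square over degrees of freedom 23.5 to 77.9). Nothing states that pools came from separate litters, so the spread may be technical in part.

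All 32 members are named. Of the partner and other adhesion lists, any called gene and up to 4 more with the lowest p per line were to be named; Boc, Vcam1, Cplx3, Lhx9 and Rn7sk were added after their values were seen. The members and lists were chosen with earlier results of these data known. Kirrel and Kirrel1 name the same gene. Alternatives were RLE and upper-quartile scaling, no filter, a filter at 1 CPM in at least 2 libraries with a mean count of 20, DESeq2 1.42.0, each line alone, replicate blocks, and leaving out each library with the tested genes held fixed.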

Additional observations from a re-analysis of the deposited data

Results flagged for a closer look

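Cntn2 and Igsf9 are listed because both mutants lay below both controls in the Emx1Cre line and above both controls in the NexCre line. The NexCre effect minus the Emx1Cre effect was 1.33 for Cntn2 on the log2 scale. EdgeR's test of that difference gave an adjusted p of 0.512 for Cntn2 and DESeq2 gave 0.00955. Leaving out single libraries gave 0.99 to 1.604 for Cntn2, with adjusted p of 0.178 to 1.00. For Igsf9 the difference was 0.65, with an adjusted p of 0.648 in edgeR and 0.209 in DESeq2, and 0.56 to 0.73 when single libraries were left out.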

How the results depend on the processing

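The count of members called in the Emx1Cre line was 1 under RLE and upper-quartile scaling, the strict filter and each line alone. Of all genes, 0.0833% were called under either scaling, 0.11% under the strict filter and 0.486% with each line alone. The count was 7 without the low-count filter (1.65% of all genes called) and 6 in DESeq2 (1.29%). With a replicate block in both lines or in the Emx1Cre line alone it was 2, Sdk1 and Sdk2 (0.359% and 0.32% of all genes). No member was called when any 1 of the 8 libraries was left out, and few or no genes of all tested were called in those fits. In the NexCre line the count was 1 without the filter (Ntm, with 0.706% of all genes called) and 0 otherwise, and for the difference of the effects it was 2 without the filter (Cntn2 and Ncam2, with 1.15% of all genes), 1 in DESeq2 (Cntn2, with 0.421%) and 0 otherwise. The cause was not tested. Same-numbered pools share only a number: their differences between replicates correlated at 0.15 across genes in the Emx1Cre line and 0.07 in the NexCre line. Over 16 alternatives 21 of 32 members kept the sign of their log2 fold change in the Emx1Cre line and 18 of 32 in the NexCre line, and no called value changed sign. The lone pool left in a group is taken to vary like the other groups. Intervals of most members reach about 0.4 on either side, which limits what 2 pools a group can show.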
